A study of Mus musculus with 9 samples.

Results

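The 31 genes described here encode the glucose transporters, the enzymes of glycolysis, the lactate dehydrogenases and lactate transporters, and 6 genes linked to hypoxia. They were chosen by symbol, from what they are known to do, with earlier results of these data known. All 31 were found among the 20732 genes of the count table. They were followed in group 2 innate lymphoid cells (ILC2s), lymphocytes without antigen receptors that live in tissues and release type 2 cytokines, isolated from pancreata of C57BL6/J animals. Mice of the IL-33 group had been given 200 ng of IL-33, an alarmin that activates ILC2s through the receptor encoded by Il1rl1, on days 0 and 1 (5 libraries). Mice of the PBS group had been given PBS on the same days (4 libraries, titled naïve). Pancreata were harvested on day 5, and live CD45+ cells lacking CD3, B220 and lineage markers and carrying KLRG1 were collected. Sample titles give 5 IL-33 and 4 PBS libraries, whereas the design text gives 4 IL-33 and 5 PBS mice; the sample titles were followed. No label ties a library to its own mouse, and the p-values therefore rest on library-to-library spread, which may in part be technical.

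Glycolysis splits glucose into pyruvate in the cytosol. Its early steps spend ATP to trap and split the sugar, and its later steps, the payoff phase, return ATP and reduced NAD. Lactate dehydrogenase reoxidises that NAD by turning pyruvate into lactate, which monocarboxylate transporters carry out of the cell, and proliferating lymphocytes are known for running this route even when oxygen is present. When oxygen is scarce, prolyl hydroxylases of the Egln family stop marking hypoxia-inducible factor for destruction, and the factor then raises many glycolytic genes together with genes such as Vegfa and Bnip3.

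Total counts were 14216976 to 21020023 per library, with 16015 to 17573 genes detected. Of 14 genes of ILC2 identity all had counts in both groups, with 3 called higher, 3 lower and 8 not called. Of all genes tested, 13.7% were called higher and 11.6% lower. Gata3, the transcription factor that ILC2s depend on, averaged 4030 CPM (counts scaled to library size) with IL-33 and 4520 CPM with PBS, and Il1rl1 averaged 865 CPM with IL-33 and 1180 CPM with PBS, neither called. Klrg1, the marker of the sort, averaged 1430 CPM with IL-33 and 709 CPM with PBS (adjusted p = 0.000788), and the cytokines Il5 and Il13 rose too. Icos, a costimulatory receptor, averaged 216 CPM with IL-33 and 613 CPM with PBS (adjusted p = 0.000819), and the cytokine receptors Il7r (269 CPM with IL-33, 652 CPM with PBS; adjusted p = 0.00306) and Il2ra (361 CPM with IL-33, 529 CPM with PBS; adjusted p = 0.0373) fell as well. Transcripts of other cells were present. Acinar genes, which encode the digestive enzymes of the pancreas, took 0.523% to 16.7% of counts in IL-33 libraries and 0.188% to 55.7% in PBS libraries, with the highest share in PBS replicate 4. Scaling by the trimmed mean of M-values (TMM) gave that library a factor of 0.532, against 0.99 to 1.17 elsewhere. Erythroid genes took 0.0424% to 0.365% of counts with IL-33 and 0.0142% to 0.0343% with PBS, and IL-33 replicates 1, 2 and 3 were the highest. Fibroblast markers summed to 1.42 to 16.9 CPM with IL-33 and 55.4 to 105 CPM with PBS. Most of the PBS sum was 1 gene, Mmp2, which averaged 1.70 CPM with IL-33 and 67.0 CPM with PBS. Mast cell and basophil markers, of which 2 of 7 were in the table, summed to 94.2 to 357 CPM with IL-33 and 15.4 to 45.8 CPM with PBS. Most of that sum was Cpa3, at 157 CPM with IL-33 and 28.9 CPM with PBS. Sums led by 1 gene need not follow the number of such cells, and the part of these cells was not tested. Results are also given without PBS replicate 4 and without the 3 erythroid-rich IL-33 libraries.

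Of the 7 tested genes of the payoff phase of glycolysis 6 were higher in ILC2s from IL-33-treated mice, as was Ldha, while glucose transporters and most hypoxia-linked genes were not called. Of the 31 genes, 30 passed the filter on low counts, and Eno2 did not. Pgam2, at 0 in PBS, passed through the IL-33 libraries alone and is part of the counts given here. By edgeR's quasi-likelihood test, 11 of the 30 rose at an adjusted p below 0.05 (36.7%), where 13.7% of all 14405 genes tested rose. They were Gpi1, Tpi1, Gapdh, Pgk1, Pgam1, Pgam2, Eno1, Pkm, Ldha, Slc16a3 and Hif1a. Only Ldhb and Bnip3 fell (6.67% of 30, where 11.6% of all genes tested fell), and the other 17 were not called. The median log2 fold change, IL-33 over PBS, was 0.34 over the 30 genes and -0.05 over all genes tested. Every IL-33 library lay above every PBS library for 11 of the 30 genes, where this held for 15.3% of all genes tested, and below every PBS library for 4, where it held for 10.8%. The fit counts RNA in bulk, so more transcripts per cell and more cells that carry them cannot be told apart.

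**Figure D1:**
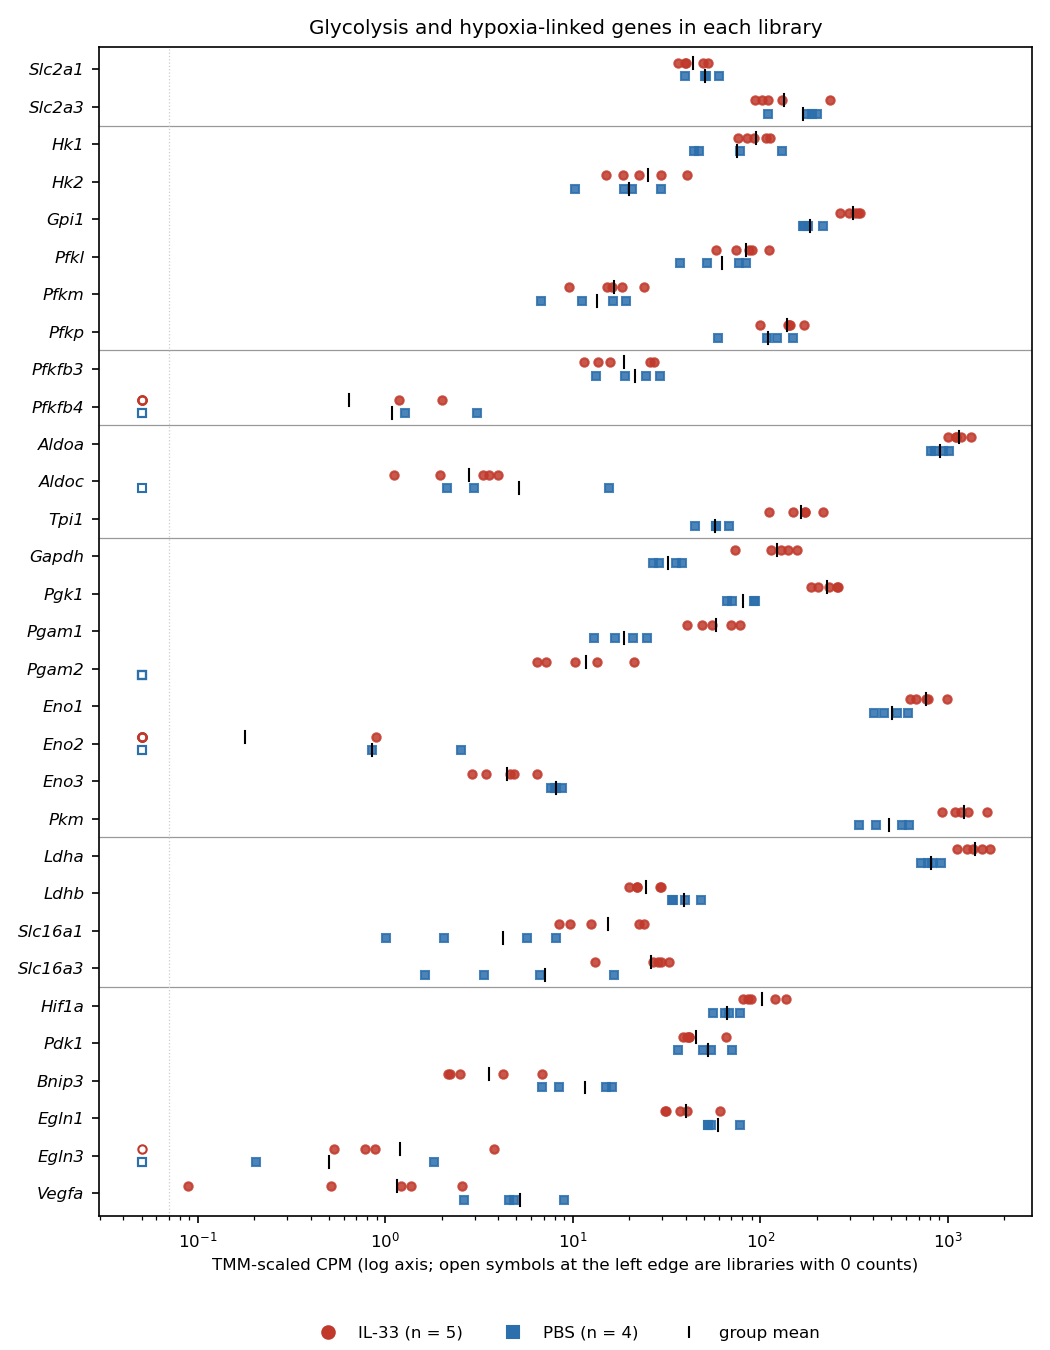
TMM-scaled CPM on a log axis for the 31 genes, in pathway order from glucose uptake at the top to the hypoxia pathway at the bottom, with 1 symbol per library (circles, 5 IL-33; squares, 4 PBS) and a vertical tick at each group mean. The groups stand apart from Tpi1 to Pgam2 and for Pkm and Ldha, whereas Slc2a1, Hk2 and Pfkm overlap.

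The 31 genes together took 0.664% ± 0.11 of all counts with IL-33 (SD, n = 5) and 0.374% ± 0.117 with PBS (SD, n = 4). In scaled units their summed level was 5270 to 7350 CPM in IL-33 libraries and 3480 to 4420 CPM in PBS libraries. Genes of DNA replication and mitosis also rose in the same libraries. All 23 genes of that list were called higher, where 13.7% of all genes tested were. Their summed level was 3660 ± 515 CPM with IL-33 (SD, n = 5) and 510 ± 45.1 CPM with PBS (SD, n = 4). The part of cell division in the glycolytic changes was not tested.

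Hypoxia-inducible factor binds a short core, and the promoter windows of the genes are shown for that reason. Windows of 250 bases ending at the transcription start were taken from RefSeq on GRCm38.p6 for 30 of the 31 genes. The motifs ACGTG and GCGTG were searched on both strands, where they read CACGT and CACGC on the reverse; the E-box CACGTG contains ACGTG on each strand. At least 1 match was present in 22 of 30 windows (73.3%), against 38.6% of all 32851 windows of the table, and CACGTG was present in 6, against 6.02% of all windows. Each of the 30 genes had 1 window, the nearest to its principal transcript's start, whereas all windows include several for some genes. The sets were not matched for base composition or expression, and the gap between these shares was not tested. Matches occurred in 7 of the 11 genes that rose, in 2 of the 2 that fell and in 13 of the 17 others that had a window. Gpi1, Tpi1, Pgam2 and Pkm, which rose, had no match in this window. Of the 250 bases, 211 for Pkm and 138 for Tpi1 lie in exons that GENCODE annotates for these genes. For these 2 genes the window thus covers little sequence upstream of the annotated exons. The 6 windows below are of 4 genes that rose (Gapdh, Pgk1, Pgam1, Ldha) and of both that fell, so that the places of the matches can be compared; each is written 5′ to 3′ on the gene's own strand with the matches in capitals.
Gapdh: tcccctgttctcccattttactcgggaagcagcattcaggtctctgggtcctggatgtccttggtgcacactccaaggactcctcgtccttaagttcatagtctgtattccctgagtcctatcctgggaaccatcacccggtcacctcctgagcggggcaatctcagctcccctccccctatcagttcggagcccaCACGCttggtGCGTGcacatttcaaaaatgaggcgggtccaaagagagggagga
Pgk1: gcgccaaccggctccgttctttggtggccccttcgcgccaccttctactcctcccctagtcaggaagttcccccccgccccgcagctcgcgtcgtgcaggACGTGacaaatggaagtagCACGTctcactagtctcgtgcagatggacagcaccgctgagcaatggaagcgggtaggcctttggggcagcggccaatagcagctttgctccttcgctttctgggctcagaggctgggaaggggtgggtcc
Pgam1: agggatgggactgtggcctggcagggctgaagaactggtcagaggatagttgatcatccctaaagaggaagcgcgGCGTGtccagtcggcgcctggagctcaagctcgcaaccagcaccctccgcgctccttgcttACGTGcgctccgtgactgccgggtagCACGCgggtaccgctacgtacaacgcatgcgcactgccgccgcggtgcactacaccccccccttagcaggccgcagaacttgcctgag
Ldha: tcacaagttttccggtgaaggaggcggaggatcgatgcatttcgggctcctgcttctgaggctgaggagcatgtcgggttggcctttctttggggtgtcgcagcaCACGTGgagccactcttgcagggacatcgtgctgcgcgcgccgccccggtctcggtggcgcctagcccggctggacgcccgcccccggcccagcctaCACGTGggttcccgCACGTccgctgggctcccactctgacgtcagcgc
Ldhb: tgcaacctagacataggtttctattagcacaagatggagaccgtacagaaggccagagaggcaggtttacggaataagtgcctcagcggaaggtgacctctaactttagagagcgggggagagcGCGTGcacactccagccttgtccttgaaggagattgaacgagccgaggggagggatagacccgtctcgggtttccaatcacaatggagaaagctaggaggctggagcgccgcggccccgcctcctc
Bnip3: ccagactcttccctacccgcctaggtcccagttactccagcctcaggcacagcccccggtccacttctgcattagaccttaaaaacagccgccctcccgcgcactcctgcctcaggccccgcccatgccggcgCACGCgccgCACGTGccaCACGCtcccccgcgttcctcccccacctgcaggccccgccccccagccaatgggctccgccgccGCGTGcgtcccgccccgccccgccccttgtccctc
The windows lie at chr6:125165774-125166023 on the minus strand (Gapdh), chrX:106186850-106187099 on the plus strand (Pgk1), chr19:41911621-41911870 on the plus strand (Pgam1), chr7:46845554-46845803 on the plus strand (Ldha), chr6:142507958-142508207 on the minus strand (Ldhb) and chr7:138909507-138909756 on the minus strand (Bnip3). Counting back from the start, matches began at -54 and -44 in Gapdh, at -150 and -131 in Pgk1, and at -175, -114 and -88 in Pgam1. Ldha had 5 starts, at -145, -144, -48, -47 and -34, where the paired positions are the strands of a CACGTG. Ldhb had 1, at -126, and Bnip3 had 5, at -117, -108, -107, -99 and -35. The last 13 bases of the Bnip3 window lie in an exon that GENCODE annotates for that gene. A match is a run of letters and not a measured binding site, and rising and falling genes both carried them.

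Glucose enters lymphocytes mainly through the facilitative transporters Slc2a1 and Slc2a3, and neither was called. Slc2a1 had 39.6, 39.96, 49.2, 36.3 and 52.3 CPM in IL-33 replicates 1 to 5, against 60.4, 39.5, 51.5 and 50.5 CPM in PBS replicates 1 to 4. The groups overlapped, with a log2 fold change of -0.22 ± 0.17 (SE; adjusted p = 0.39). Slc2a3 had 93.9, 110, 236, 102 and 131 CPM with IL-33, against 188, 201, 177 and 110 CPM with PBS. IL-33 replicate 3 held the highest value of all 9 libraries, and the log2 fold change was -0.33 (adjusted p = 0.441). Without that library Slc2a3 was called lower, at -0.63 (adjusted p = 0.0490).

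Of the genes from hexokinase to phosphofructokinase, which trap glucose and commit it to glycolysis, 1 of 6 rose. That is near the share of all genes tested that rose, 13.7%. Gpi1, glucose phosphate isomerase, had 266, 340, 319, 298 and 334 CPM with IL-33, against 170, 179, 216 and 172 CPM with PBS. All IL-33 libraries exceeded all PBS libraries, and the log2 fold change was 0.76 ± 0.11 (SE; adjusted p = 0.00152). Gpi1 shares 741 exonic bases with Gm26762 on the opposite strand, and no source says that the libraries kept strand. With library size alone as scaling, Gpi1 had an adjusted p of 0.0538. The hexokinases, which phosphorylate glucose on entry, overlapped between groups. Hk1 averaged 94.7 CPM with IL-33 and 74.8 CPM with PBS (log2 0.34, adjusted p = 0.453), and Hk2, the inducible form, averaged 25.2 CPM with IL-33 and 19.8 CPM with PBS (log2 0.35, adjusted p = 0.518). PBS replicate 3 was the highest of all libraries for Hk1, at 130 CPM, and without it Hk1 was called higher (log2 0.75, adjusted p = 0.0443). The liver, muscle and platelet forms of phosphofructokinase, Pfkl, Pfkm and Pfkp, had log2 fold changes of 0.43, 0.31 and 0.34 and adjusted p values of 0.268, 0.555 and 0.358. Pfkp was the most abundant of them, at 139 CPM with IL-33 and 110 CPM with PBS, and shares 748 exonic bases with Pitrm1 on the opposite strand. Once the trend of counts with gene length and GC content was removed, Pfkp was called higher (log2 1.00, adjusted p = 0.00776).

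Pfkfb3 and Pfkfb4 encode bifunctional enzymes that set the level of the strongest activator of phosphofructokinase. Pfkfb3 averaged 18.7 CPM with IL-33 and 21.5 CPM with PBS (log2 -0.20, adjusted p = 0.690). Pfkfb4 had 0, 1.19, 2.0, 0 and 0 CPM with IL-33, against 1.27, 3.07, 0 and 0 CPM with PBS. At this depth no difference in Pfkfb4 was detectable (adjusted p = 0.792).

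Aldolase splits the doubly phosphorylated sugar and Tpi1, triose phosphate isomerase, interconverts the products; Tpi1 rose and the aldolases were not called. Tpi1 had 149, 215, 112, 173 and 172 CPM with IL-33, against 57.9, 44.6, 57.7 and 67.9 CPM with PBS. The lowest IL-33 library, replicate 3, was well above the highest PBS library, and the log2 fold change was 1.53 ± 0.20 (SE; adjusted p = 0.000717). Aldoa, the main aldolase of lymphocytes, had 1002, 1329, 1102, 1110 and 1175 CPM with IL-33, against 818, 859, 1016 and 940.1 CPM with PBS. PBS replicate 3 overlapped the lowest IL-33 library, and the log2 fold change of 0.33 ± 0.11 (SE) just missed the threshold (adjusted p = 0.0522). Aldoa was called higher without PBS replicate 3 (log2 0.39, adjusted p = 0.0424) and without IL-33 replicate 1 (log2 0.38, adjusted p = 0.0485). Aldoc, the brain form, was at 1.11 to 4.00 CPM with IL-33 and at 0 to 15.7 CPM with PBS. Its highest value was in PBS replicate 4, without which its log2 fold change of -0.89 turned to 0.70 (adjusted p = 0.606 with and 0.692 without that library).

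The payoff phase, from Gapdh to Pkm, held 6 of the 11 genes that rose, out of 7 tested, with a median log2 fold change of 1.49. Of all genes tested 13.7% rose. Gapdh, the dehydrogenase that opens the phase, had 114, 158, 73.3, 128 and 140 CPM with IL-33, against 28.9, 26.6, 35.3 and 38.4 CPM with PBS. Even the lowest IL-33 library, replicate 3, exceeded every PBS library, and the log2 fold change was 1.93 ± 0.23 (SE; adjusted p = 0.000427). Pgk1, the kinase of the first ATP-yielding step, had 203, 255, 187, 259 and 232 CPM with IL-33, against 93.0, 70.9, 93.3 and 66.4 CPM with PBS. The groups were separate, with a log2 fold change of 1.49 ± 0.16 (SE; adjusted p = 0.000248), the lowest adjusted p among the 30 genes. Pgam1, the phosphoglycerate mutase of most tissues, had 40.7, 77.7, 55.2, 69.4 and 48.8 CPM with IL-33, against 24.8, 13.0, 20.8 and 16.7 CPM with PBS. Its groups did not overlap either, and the log2 fold change was 1.63 ± 0.26 (SE; adjusted p = 0.00188).

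Pgam2, the phosphoglycerate mutase of muscle, was detected in the IL-33 libraries and in none of the PBS libraries. It had 7.18, 6.41, 13.5, 21.3 and 10.3 CPM with IL-33 and 0 counts in each of the 4 PBS libraries. Set against a floor of 3 counts per PBS library, 0.193 CPM on average, it was at least 60.8-fold higher (adjusted p = 0.000436). Pgam2 passed the filter on low counts through its IL-33 libraries alone, so its entry into the test depended on the group where it was high. Other transcripts of skeletal muscle were measured beside it. Of 14 muscle markers 7 were in the count table, and the others were absent from it. The summed level of those present was 25.1 to 35.9 CPM with IL-33 and 9.14 to 12.2 CPM with PBS. Ckm, the muscle creatine kinase, was at 0.170 CPM with IL-33 and 0 with PBS. Both muscle markers that passed the filter rose: Mylpf, a myosin light chain, averaged 12.8 CPM with IL-33 and 4.71 CPM with PBS, and Acta1, skeletal actin, 13.9 CPM with IL-33 and 4.02 CPM with PBS. Of all genes tested 13.7% rose. Ckm and the other markers present did not pass the filter. Actn3 averaged 1.06 CPM with IL-33 and 0.253 CPM with PBS. Lower with IL-33 were Tnnt3 (0.0221 CPM, against 1.42 CPM with PBS), Atp2a1 (0.115 against 0.425 CPM) and Ttn (0.118 against 0.163 CPM). The markers thus did not all move in 1 direction, and the part of muscle RNA in the Pgam2 value was not tested.

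Enolase and pyruvate kinase close the pathway. Eno1, the enolase of most cells, had 626, 989, 674, 761 and 788 CPM with IL-33, against 454, 406, 616 and 536 CPM with PBS. IL-33 replicate 1 exceeded PBS replicate 3 by a narrow margin, and the log2 fold change was 0.61 ± 0.17 (SE; adjusted p = 0.0242). The call on Eno1 ended without PBS replicate 1 (adjusted p = 0.0677), PBS replicate 2 (0.0693), IL-33 replicate 4 (0.0537) or IL-33 replicate 5 (0.0510). Eno3, the muscle enolase, was not called, although each IL-33 library lay below each PBS library. It had 4.86, 6.47, 2.88, 3.43 and 4.61 CPM with IL-33, against 7.62, 8.14, 8.72 and 8.02 CPM with PBS (log2 -0.87 ± 0.31, SE; adjusted p = 0.0710). Eno2, the neuronal enolase, was at 0 in 4 of 5 IL-33 and 2 of 4 PBS libraries. Pkm, the pyruvate kinase of lymphocytes, had 934, 1622, 1091, 1170 and 1283 CPM with IL-33, against 337, 413, 618 and 568 CPM with PBS. Each IL-33 library was above each PBS library, and the log2 fold change was 1.33 ± 0.22 (SE; adjusted p = 0.00219).

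**Figure D2:**
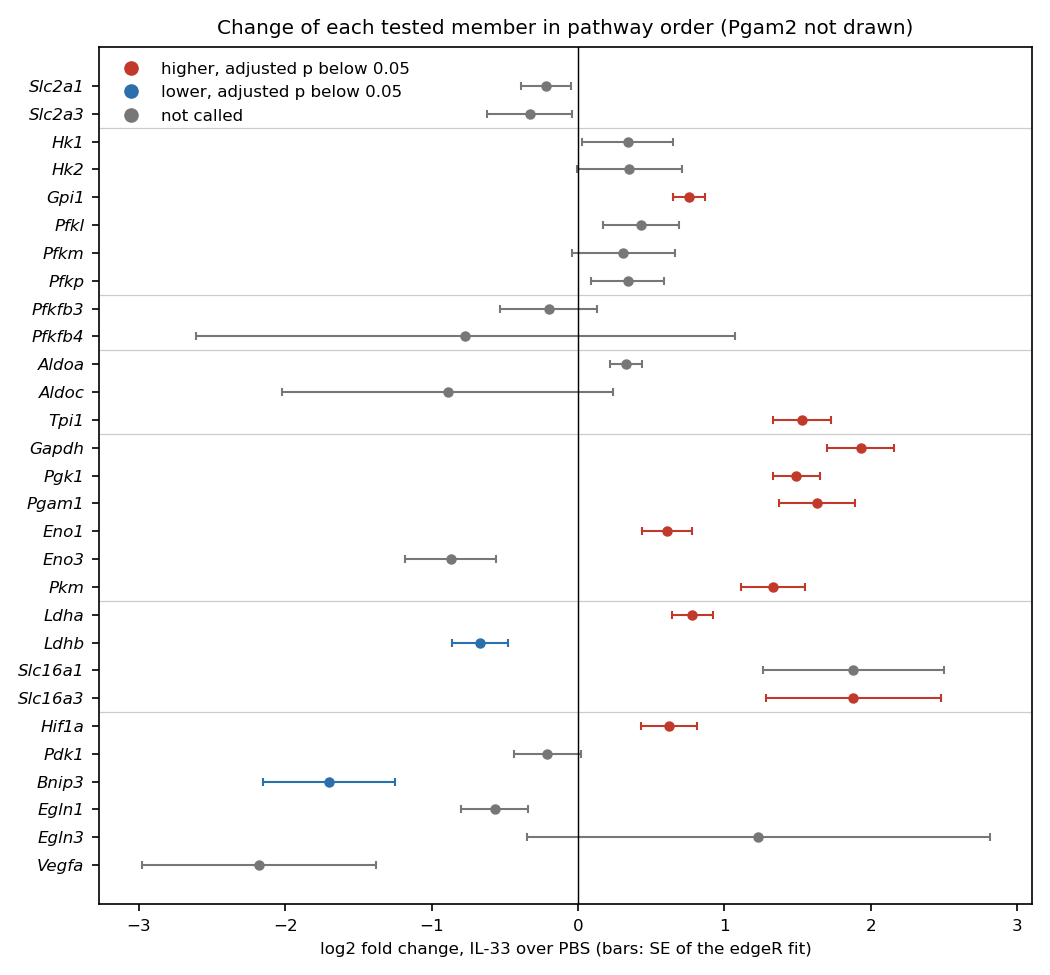
Log2 fold change, IL-33 over PBS, with the SE of the edgeR fit for 29 tested genes in pathway order; colours mark genes called higher, called lower or not called at an adjusted p of 0.05, and Pgam2, at 0 in PBS, is not drawn. Called genes from Tpi1 to Pkm lie between 0.61 and 1.93, whereas the transporters Slc2a1 and Slc2a3 lie at -0.22 and -0.33 and are not called.

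Many glycolytic genes have processed copies elsewhere in the mouse genome, and reads of a gene and its copies can be exchanged between them in counting. Copies with at least 95% identity over at least 300 bases were found for 10 of the 31 genes, and for 8 of them copies were in the count table. The copies of Ldha (Gm5452 and Gm9247) and of Tpi1 (Tpi-rs11) were not analysed here. The count table held 79 such copies of Gapdh, and together they carried 52849 counts, against 14254 counts of Gapdh itself. Copies held 76.9% to 80.9% of the counts of the Gapdh family in every library, 38.9% to 40.9% for Pgk1 (Pgk1-rs7 and Gm5537) and 33.5% to 35% for Eno1 (Eno1b, Gm4735 and Gm5855). The share was 16.7% to 23.3% for Pgam1, 10.5% to 11.6% for Pkm, 7.22% to 9.28% for Gpi1, 4.41% to 8.05% for Ldhb and 2.17% to 8.12% for Bnip3. The share differed between groups without overlap for Pgk1 (40.0% to 40.9% with IL-33, 38.9% to 39.7% with PBS) and for Pgam1 (20.4% to 23.3% with IL-33, 16.7% to 20% with PBS), by little in each. With copies added, Gapdh averaged 576 ± 146 CPM with IL-33 (SD, n = 5) and 156 ± 33.2 CPM with PBS (SD, n = 4), with a log2 fold change of 1.90 (adjusted p = 0.000508). The level of Gapdh was higher with its copies counted, and the fold change was nearly the same. Under that count 12 of the 30 genes were called higher and 2 lower, Aldoa being the addition. Aldoa had no such copies, so no counts were added to it. Its adjusted p moved from 0.0522 to 0.0491 when edgeR was refitted, with 14334 genes tested.

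**Figure D3:**
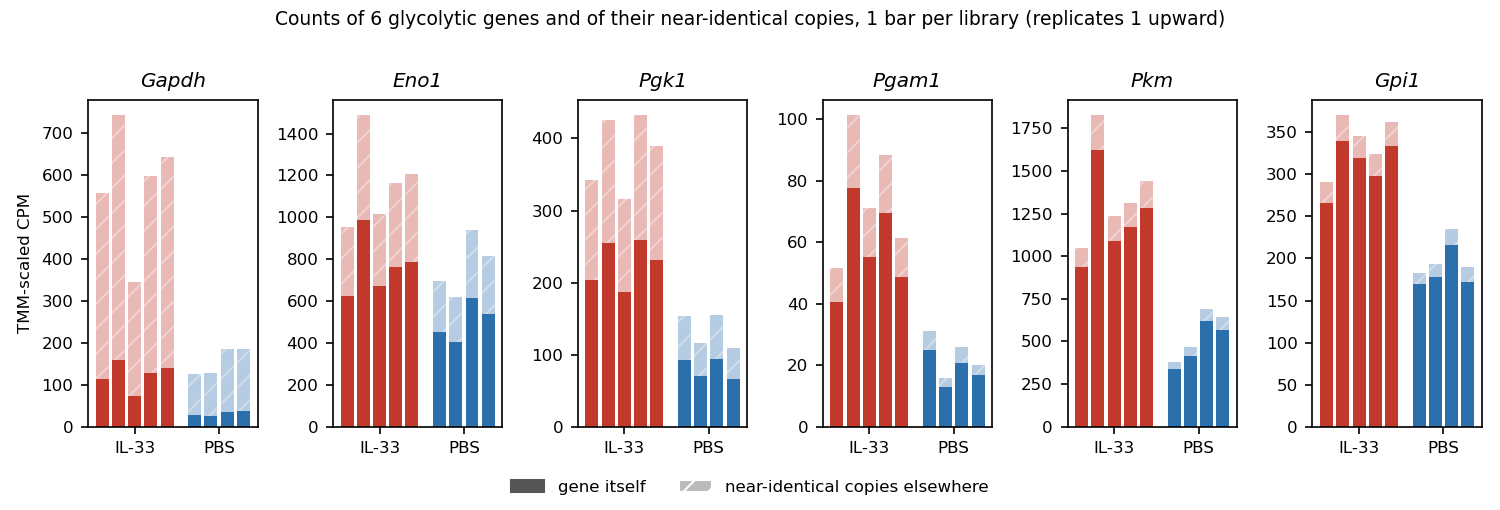
TMM-scaled CPM of 6 genes that rose (solid) and of their near-identical copies (hatched, stacked on top), with 1 bar per library, the 5 IL-33 libraries left of the 4 PBS libraries and replicates running upward from 1. The hatched part dominates Gapdh and is small in Gpi1, and within each gene it keeps a similar share of every bar.

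Pyruvate is turned into lactate by lactate dehydrogenase, whose A and B subunits are encoded by Ldha and Ldhb; Ldha rose and Ldhb fell. Ldha, the subunit known for favouring lactate formation, had 1114, 1529, 1268, 1671 and 1362 CPM with IL-33, against 716, 789, 914 and 824 CPM with PBS. All IL-33 libraries were above all PBS libraries (log2 0.78 ± 0.14, SE; adjusted p = 0.00312). Ldhb, the subunit of aerobic tissues, had 19.8, 29.2, 29.3, 22.0 and 22.1 CPM with IL-33, against 48.3, 34.3, 39.8 and 33.8 CPM with PBS. Here all IL-33 libraries were below all PBS libraries (log2 -0.67 ± 0.19, SE; adjusted p = 0.0262). The call on Ldhb ended when any of 5 libraries was left out, with an adjusted p of 0.0776 without PBS replicate 1, 0.0518 without PBS replicate 3, 0.0588 without IL-33 replicate 1, 0.0543 without IL-33 replicate 4 and 0.0631 without IL-33 replicate 5.

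The monocarboxylate transporters Slc16a3 and Slc16a1 carry lactate across the membrane. Slc16a3, the form known from strongly glycolytic cells, had 32.5, 26.9, 13.1, 28.4 and 29.4 CPM with IL-33, against 3.35, 1.63, 16.6 and 6.68 CPM with PBS. PBS replicate 3 lay above IL-33 replicate 3, and the other libraries were separate (log2 1.88 ± 0.60, SE; adjusted p = 0.0467). The call on Slc16a3 ended without PBS replicate 1, 2 or 4 (adjusted p = 0.112, 0.0746 and 0.0870) and without IL-33 replicate 1, 2, 4 or 5 (adjusted p = 0.0853, 0.0842, 0.0821 and 0.0833). Without PBS replicate 3 its log2 fold change was 2.76 (adjusted p = 0.00613), and with limma voom 2.61 (adjusted p = 0.0105). Slc16a1 had 8.45, 24.0, 22.5, 12.4 and 9.63 CPM with IL-33, against 5.69, 2.05, 1.01 and 8.11 CPM with PBS. The groups were separate by a narrow margin, and the log2 fold change of 1.88 ± 0.62 (SE) missed the threshold (adjusted p = 0.0506). Without PBS replicate 4 it was called (log2 2.39, adjusted p = 0.0274).

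Related genes of the same step were also compared within each library, as log2 ratios of counts per kb of transcript, which do not depend on scaling between libraries. The geometric mean ratio of Ldha to Ldhb was 42.0 with IL-33 and 15.4 with PBS, and that of Eno1 to Eno3 was 136 with IL-33 and 47.1 with PBS. The log2 ratio of Ldha to Ldhb was 5.37, 5.27, 5.00, 5.81 and 5.51 in IL-33 libraries, against 3.45, 4.08, 4.08 and 4.17 in PBS libraries. The IL-33 minus PBS difference was 1.44 for Ldha to Ldhb and 1.53 for Eno1 to Eno3, with no overlap between groups in either. A two-sided exact permutation test gave p = 0.0159 for each, the smallest that 126 splits allow, and an adjusted p of 0.0873 over the 11 pairs tested. Neither ratio passed the threshold after adjustment. With p already at its floor in both, no larger difference in these ratios could have passed, so the adjusted value does not decide on either. The other 9 pairs, among them Hk2 to Hk1, Slc2a1 to Slc2a3 and Slc16a3 to Slc16a1, had exact permutation adjusted p values of 0.873 to 0.984. Pgam1 to Pgam2 and Eno1 to Eno2 were not tested, since Pgam2 was at 0 in PBS and Eno2 did not pass the filter.

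**Figure D4:**
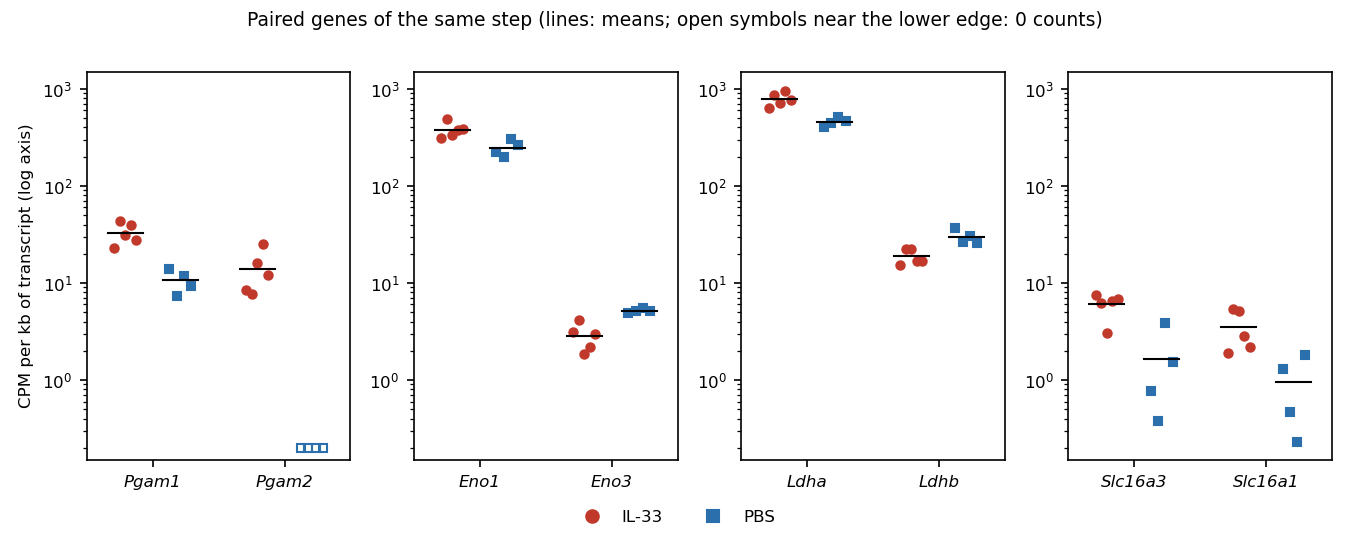
CPM per kb of transcript on a log axis for 4 pairs of genes of the same step, with 1 symbol per library (circles, 5 IL-33; squares, 4 PBS), lines at the means and open symbols for 0 counts. Ldha lies higher and Ldhb lower with IL-33, and Pgam2 has counts in the 5 IL-33 libraries and in none of the 4 PBS libraries.

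Per length, the order of abundance differed little between groups at its head. With IL-33 the highest levels were 786 CPM per kb for Ldha, 757 for Aldoa, 502 for Pkm and 379 for Eno1. With PBS they were 601 CPM per kb for Aldoa, 459 for Ldha, 248 for Eno1 and 199 for Pkm. Pgk1 stood at 125 CPM per kb with IL-33 and 44.3 with PBS, Tpi1 at 102 with IL-33 and 35.5 with PBS, and Gapdh, without its copies, at 86.4 with IL-33 and 22.7 with PBS. At the low end, Egln3, Pfkfb4 and Eno2 were under 1 CPM per kb in both groups.

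Of the hypoxia-linked genes 1 of 6 rose and 1 fell, with a median log2 fold change of -0.39. Both counts are near the shares of all genes tested, of which 13.7% rose and 11.6% fell. Hif1a, the oxygen-regulated subunit of hypoxia-inducible factor, which is controlled mainly through its protein, had 120, 85.4, 80.5, 89.6 and 137 CPM with IL-33, against 77.4, 68.2, 56.2 and 64.6 CPM with PBS. The groups were separate, with IL-33 replicates 1 and 5 the highest (log2 0.62 ± 0.19, SE; adjusted p = 0.0349). Hif1a shares 330 exonic bases with the antisense gene Gm15283. Its call ended without PBS replicate 2, 3 or 4 (adjusted p = 0.0748, 0.0830 and 0.0701) and without IL-33 replicate 1, 4 or 5 (adjusted p = 0.0767, 0.0513 and 0.0719).

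Bnip3, a mitochondrial protein of mitophagy and a known target of hypoxia-inducible factor, had 2.21, 4.22, 6.84, 2.14 and 2.48 CPM with IL-33, against 16.2, 15.1, 8.46 and 6.87 CPM with PBS. The groups touched at IL-33 replicate 3 and PBS replicate 4 without overlapping (log2 -1.70 ± 0.45, SE; adjusted p = 0.0225). The call on Bnip3 ended without PBS replicate 1 (adjusted p = 0.0674), PBS replicate 2 (0.0661) or IL-33 replicate 5 (0.0529). Vegfa, the endothelial growth factor, had 1.22, 1.37, 0.512, 2.57 and 0.0887 CPM with IL-33, against 4.57, 4.82, 2.64 and 8.97 CPM with PBS. All IL-33 libraries were below all PBS libraries, and the change was not called (log2 -2.18 ± 0.80, SE, adjusted p = 0.0723). Vegfa was called lower without IL-33 replicate 4 (log2 -2.74, adjusted p = 0.0464), with DESeq2 (adjusted p = 0.0182) and with limma voom (adjusted p = 0.0277). Endothelial markers were measured beside it. Their summed level over 11 genes was 31.9 to 88.3 CPM with IL-33 and 63.0 to 401 CPM with PBS. Of the 11, 2 fell, Kdr and Ptprb, where 11.6% of all genes tested fell. Their part in the Vegfa and Bnip3 values was not tested.

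The oxygen sensors and Pdk1 were not called. Egln1, the main prolyl hydroxylase, averaged 40.2 CPM with IL-33 and 59.6 CPM with PBS (log2 -0.57, adjusted p = 0.0980), and was called lower without IL-33 replicate 1 (log2 -0.76, adjusted p = 0.0211). Egln3, the hydroxylase known as an induced target of the factor, was at 0 to 3.80 CPM with IL-33 and 0 to 1.81 CPM with PBS (adjusted p = 0.608). Pdk1, a kinase that inhibits pyruvate dehydrogenase and so limits the conversion of pyruvate to acetyl-CoA, averaged 45.6 CPM with IL-33 and 52.8 CPM with PBS (log2 -0.21, adjusted p = 0.531).

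Other genes of the same pathways were read from a pair of lists. Of 36 tested genes of glycolysis, pyruvate and pentose phosphate metabolism outside the 31, 8 rose (22.2%, against 13.7% of all genes tested) and 1 fell (2.78%, against 11.6%). The 8 include Eno1b, a near-identical copy of Eno1 that can share its reads. Pgd, a dehydrogenase of the oxidative pentose phosphate branch, averaged 74.2 CPM with IL-33 and 32.8 CPM with PBS (log2 1.18, adjusted p = 0.01). The enzymes of the non-oxidative branch, Tkt (transketolase, log2 0.83, adjusted p = 0.0229) and Taldo1 (transaldolase, log2 0.46, adjusted p = 0.0200), rose too. Pdk3, a relative of Pdk1, rose by 1.58 on the log2 scale (adjusted p = 0.0245), and Bsg, the chaperone of the lactate transporters, rose by 0.60 on that scale (adjusted p = 0.0249). Gpd2, the mitochondrial enzyme of the glycerol phosphate shuttle, fell, with 40.2 CPM with IL-33 and 74.7 CPM with PBS (log2 -0.89, adjusted p = 0.0156).

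Of 27 tested genes of the hypoxia-inducible factor pathway outside the 31, 6 rose (22.2%, against 13.7% of all genes tested) and 4 fell (14.8%, near the 11.6% of all genes tested). Stc2, a secreted stanniocalcin, had 16.02, 7.90, 9.21, 15.2 and 10.3 CPM with IL-33, against 138, 124, 104 and 94.9 CPM with PBS. It fell in all IL-33 libraries relative to all PBS libraries (log2 -3.30 ± 0.24, SE; adjusted p = 4.87e-05). P4ha2, a collagen prolyl hydroxylase subunit, fell as well (log2 -0.94, adjusted p = 0.0238). Ero1l, an oxidase of protein folding in the endoplasmic reticulum, averaged 472 CPM with IL-33 and 198 CPM with PBS (log2 1.25, adjusted p = 0.00730). Bhlhe40, a transcription factor of activated lymphocytes, averaged 1550 CPM with IL-33 and 906 CPM with PBS (log2 0.77, adjusted p = 0.00888). Ddit4, an inhibitor of mTOR signalling, rose by 1.80 with overlapping groups (adjusted p = 0.0160), and Tfrc, the transferrin receptor, rose by 1.05 on the log2 scale (adjusted p = 0.0183).

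The 13 calls differed in how they held over 22 other ways of processing. Tpi1, Gapdh, Pgk1, Pgam1, Pgam2, Pkm and Ldha were called under each of the 22. Gpi1 was called under 21, Bnip3 under 15, Eno1 under 14, Ldhb under 13, and Slc16a3 and Hif1a under 11 each. Among the genes not called, Slc16a1 was called higher under 6 alternatives and Aldoa under 5, and Eno3 and Vegfa were called lower under 3 each, DESeq2 and limma voom among them. Without IL-33 replicates 1, 2 and 3, the libraries high in erythroid transcripts, 8 of the 11 higher calls were kept and neither lower call was (Bnip3 log2 -2.32, adjusted p = 0.0520; Ldhb log2 -0.82, adjusted p = 0.0858). Without PBS replicate 4, the library rich in acinar transcripts, 9 of the 11 higher and both lower calls were kept.

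**Figure D5:**
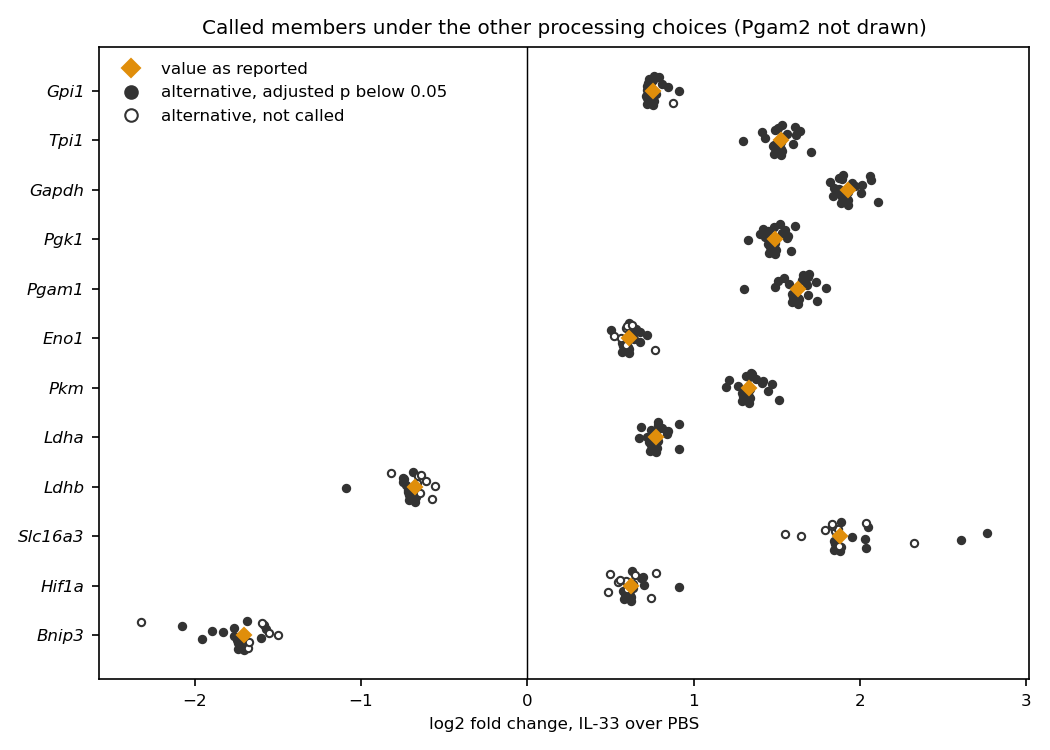
Log2 fold change, IL-33 over PBS, of 12 called genes as reported (diamonds) and under the 22 alternatives (filled circles, adjusted p below 0.05; open circles, not called); Pgam2 is not drawn. Points stay on one side of 0 for each gene, and open circles gather at Eno1, Ldhb, Slc16a3, Hif1a and Bnip3.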

How the data were processed

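RNA was sequenced from sorted pancreatic ILC2s, 5 IL-33 and 4 PBS libraries (150 nt paired reads from 5 to 15 ng of RNA, per the labels' protocols). The authors deposited whole-number read counts per Ensembl gene. The build was GRCm38.p6, and the tools were STAR 2.7.7a, Salmon 1.6.0, Trimmomatic 0.39, FastQC 0.11.9, DESeq2 and Picard, per the submitters' processing notes; what each did, and how multiply mapped reads were treated, is not stated there. A deposited normalized table, equal to the counts times 1 constant per library, was not used.

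Of 20732 gene IDs, 20607 (99.4%) matched a GENCODE M21 symbol. Counts were fitted over all 14405 genes that passed filterByExpr (minimum count 10) with edgeR 4.0.16 (R 4.3.3), using TMM factors (robust quasi-likelihood F-test, two-sided, Benjamini-Hochberg over all genes tested, threshold 0.05). The biological coefficient of variation was 0.56. Levels are TMM-scaled CPM, and levels per kb use the principal transcript. Ratios within libraries had 0.5 added to each count and were tested by an exact permutation test (SciPy 1.17.1). Copies were found with BLAST 2.17.0 and had to span at least 50% of the copy's transcript. The floor of 3 counts covers counting error only, because no molecular identifiers are named and reads need not be independent molecules. All 16 pairs of libraries of the same group differed by far more than counting noise (chi-square over degrees of freedom of at least 56.4).

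Alternatives were RLE or library-size scaling, removal of acinar genes before scaling, other filters, the replicate block, DESeq2 1.42.0, limma 3.58.1 voom with sample weights, an acinar covariate, removal of a length and GC trend, a threshold of 0.01, a pseudocount of 5 counts for ratios, and leaving out libraries; adding the copies' counts was chosen after seeing the data. The genes and lists were chosen with earlier results of these data known. The text names all 31 genes and, of each of the pair of further pathway lists, the 6 with the smallest adjusted p. Kdr, Ptprb, Ckm, Actn3, Tnnt3, Atp2a1, Ttn, Eno1b, Mmp2, Cpa3 and the genes of ILC2 identity were named after their values were seen.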

Additional observations from a re-analysis of the deposited data

Results flagged for a closer look

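In 6 of 61 groups of libraries examined, 1 library lay farther from the others of its group than Dixon's 95% critical value allows; chance gives about 1 in 20. Slc2a3 was at 236 CPM in IL-33 replicate 3, against 93.9 to 131 CPM in the other IL-33 libraries, and Pdk1 was at 65.5 CPM in the same library, against 38.6 to 41.8 CPM. Egln3 was at 3.80 CPM in IL-33 replicate 2, against 0 to 0.883 CPM in the other IL-33 libraries. Eno2 was at 0.890 CPM in that same library and had no counts in the other IL-33 libraries. Egln1 was at 77.9 CPM in PBS replicate 2, against 52.8 to 54.8 CPM in the other PBS libraries, and Egln3 was at 1.81 CPM there, against 0 to 0.203 CPM. None of these genes was among the calls.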

How the results depend on the processing

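The number of genes called, 3633, became 1786 at an adjusted p below 0.01, 1976 with library size alone, 1457 with the replicate block and 1396 without IL-33 replicates 1, 2 and 3; leaving out each library in turn gave 2676 to 3695. Of the 31 genes, 8 to 13 were called higher over the 22 alternatives. The number called lower, 2, was 0 at 0.01, with library size alone, with the replicate block and without IL-33 replicates 1, 2 and 3, 5 with DESeq2, 4 with limma voom and 0 to 3 with each library left out in turn; the cause was not tested. Library size alone moved the median of all genes by 0.13 (log2) and the share of higher calls to 67.4%, against 54.1%. Directions that turned were all of genes not called: Slc2a3 was 0.00, Pfkfb3 0.12 and Pdk1 0.16 with the length and GC trend removed, Hk2 -0.07 and Egln3 -0.89 without IL-33 replicates 1, 2 and 3, Pfkfb4 1.22 with the acinar covariate and -1.19 to 0.55 with each library left out, and Aldoc 0.70 with the replicate block, 1.73 with limma voom and -1.30 to 0.70 with each library left out. Of the ratios, Hk2 to Hk1 was 0.05 and Slc16a3 to Slc16a1 -0.03 with the replicate block, Pfkp to Pfkm -0.24 and Aldoa to Aldoc 0.09 without IL-33 replicates 1, 2 and 3, and Aldoa to Aldoc 0.09 with a pseudocount of 5 counts. With each library left out the ratio differences ran from -0.04 to 0.37 for Slc2a1 to Slc2a3, -0.46 to 0.28 for Hk2 to Hk1, -0.11 to 0.24 for Pfkl to Pfkm, -0.23 to 0.41 for Pfkp to Pfkm, -0.23 to 0.28 for Pfkl to Pfkp, -1.89 to 0.21 for Pfkfb4 to Pfkfb3, -1.87 to 1.15 for Aldoa to Aldoc and -0.31 to 1.28 for Slc16a3 to Slc16a1. Libraries of the same replicate number showed little shared deviation over all genes (r of -0.0283, -0.048, -0.0225 and 0.069). Libraries of different numbers were not compared, so these values cannot decide whether the numbers pair the samples. Under the replicate block 8 of the 11 higher calls were kept. In that block the exact test of a ratio cannot go below p = 0.125, and without IL-33 replicates 1, 2 and 3 not below 0.133. Depth limits Pfkfb4, Eno2 and Egln3, which had libraries without counts in both groups.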
